A study of Mus musculus with 14 samples.

Results

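The clustered protocadherin genes lie side by side on mouse chromosome 18, and they were examined here as 1 window, chr18:37050000-38020000 of build mm9. The window spans 970 kb and holds the Pcdha, Pcdhb and Pcdhg clusters in this order. Its members were all called ChIP-seq peaks that overlap it in any of 12 peak lists, 511 peaks of 557412 in the series and of 17747 on chromosome 18. Membership depended on position alone, and no peak crossed an edge of the window.

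Protocadherins are cadherin-like proteins of the cell surface that neurons use to recognise one another and to keep their own branches apart. In the Pcdha and Pcdhg clusters many variable first exons, each with its own promoter, are spliced to constant exons shared by the whole cluster and found at its end, whereas Pcdhb genes are single exons with a promoter each. Trimethylation of histone H3 lysine 4 (H3K4me3) marks promoters in use or ready for use, and histone H3.3 is the variant that is laid down outside replication, often at promoters and in transcribed genes. RefSeq's gene table of build GRCm38 lists 14 Pcdha, 22 Pcdhb and 22 Pcdhg genes, with Slc25a2 and Taf7 between the Pcdhb and Pcdhg clusters. It also lists Vaultrc5 and Gm6756 ahead of Pcdha1, and Gm29994, Diaph1 and Mir6979 beyond Pcdhgc5. That table was used for names and order only, so no peak below is assigned to a single gene. Peaks near either end of the window are not shown to lie in protocadherin genes.

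The cells were neural stem cells, cultured as neurospheres that started from mouse hindbrain at e15.5. In 3 cultures the genotype was Nestin-cre; H3f3aLSL-K27M-Tag/+, in which 1 allele of the H3.3 gene H3f3a yields a tagged histone with methionine in place of lysine 27 (K27M-Tag), and in 3 cultures it was Nestin-cre; H3f3aLSL-WT-Tag/+, in which the tagged histone is wild type (WT-Tag). All 6 cultures carried Nestin-cre, which acts in neural progenitors, and the other H3f3a allele untouched. The cultures were female, apart from WT-Tag replicate 3, which was male. Each culture gave 1 list for an antibody to the FLAG epitope, which reads where the tagged histone sits, and 1 list for H3K4me3. No list of an untagged culture was used here, so the level of FLAG peaks without the tag is not known. The 2 composite inputs, 1 for each genotype, were not analysed here. The labels do not say whether replicates come from separate embryos, so p-values measure the spread between these cultures only.

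The lists differed in length across the whole genome. FLAG lists held 57589 to 88285 peaks in K27M-Tag and 32763 to 47293 in WT-Tag, and H3K4me3 lists held 35366 to 38720 and 31932 to 32504. Read totals were not given, and the background coverage recovered from the lists was 3.16 to 3.604 reads in the K27M-Tag FLAG libraries, 3.09 to 3.45 in the WT-Tag FLAG libraries, 2.77 to 3.50 in the K27M-Tag H3K4me3 libraries and 2.89 to 3.24 in the WT-Tag H3K4me3 libraries. The K27M-Tag lists were longer than the WT-Tag lists for both antibodies. Most counts in the window are therefore set beside the same count over autosomal tiles of 970 kb or over all regions of the genome.

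The protocadherin window was dense in H3K4me3 peaks and moderately filled with FLAG peaks. The H3K4me3 lists of K27M-Tag placed 69, 58 and 68 peaks there, in the order of replicates 1 to 3 that is kept below, and those of WT-Tag placed 55, 57 and 45. The number exceeded that of 99.2% of the 2357 autosomal tiles in K27M-Tag and of 98.1% in WT-Tag, where the median tile held 12 and 10 peaks. Individual peaks were low for this mark. Their median score percentile within the list was 28.2 to 35.3 in the 6 lists, and the median summit height was 7.14 to 8.95 times background coverage against 12.8 to 19.7 over the whole lists. FLAG peaks numbered 33, 27 and 35 in K27M-Tag, compared with 21, 23 and 20 in WT-Tag, more than in 62.2% and 71.7% of 2272 tiles. Their median score percentile was 56.8 to 69.9, so the FLAG peaks of the window stood above the middle of their lists while the H3K4me3 peaks stood below it.

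**Figure D1:**
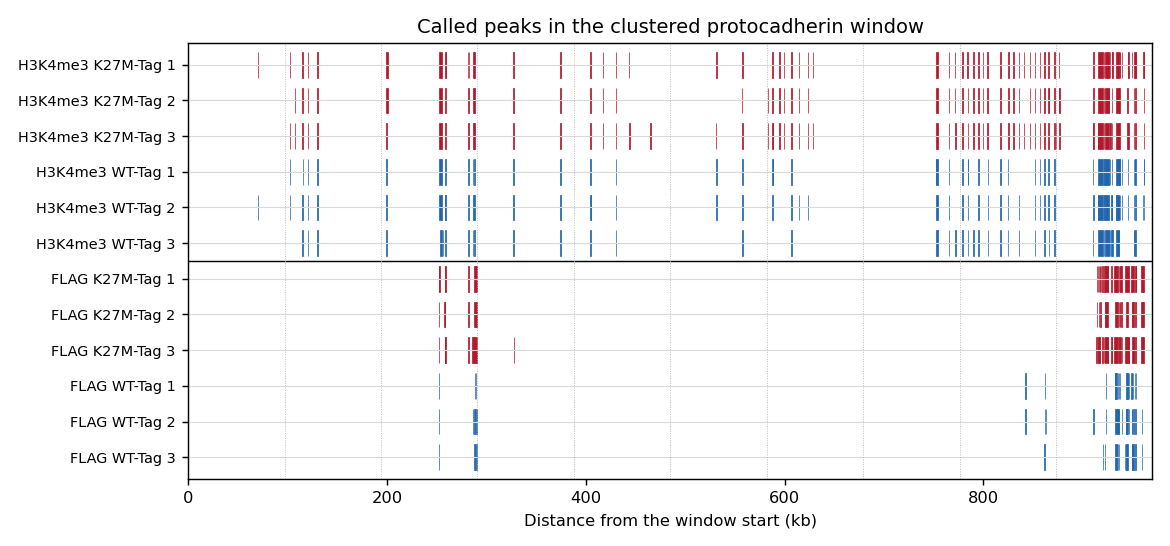
Called peaks along the 970 kb window, with distance from the window start in kb on the horizontal axis, 1 line of bars per list and dotted lines at 97 kb steps (red K27M-Tag, blue WT-Tag). H3K4me3 peaks are spread along the window in all 6 lists, with long stretches free of them. FLAG peaks gather near 250 to 290 kb and in the last 60 kb.

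FLAG and H3K4me3 were laid out differently along the clusters. The first 251.811 kb of the window, at the Pcdha side, held no FLAG peak in any list, and 7 merged H3K4me3 regions, 4 of them in all 6 lists. (A merged region is the union of peaks of the 6 lists of an antibody that share at least 1 bp.) A second stretch of 514323 bp between 37377744 and 37892068 also held no FLAG peak in any list. H3K4me3 was called in much of that stretch, with 31 merged regions, 13 of them in all 6 lists, but its longest parts without the mark ran for 123884 and 65799 bp. Its H3K4me3 peaks numbered 28, 25 and 31 in K27M-Tag, compared with 18, 19 and 16 in WT-Tag, and they covered 15947, 13447 and 15365 bp against 8268, 10333 and 8577 bp. Both the number and the length were higher in every K27M-Tag list than in every WT-Tag list. Over autosomal tiles of 970 kb, which are longer than the stretch, 25.9% separated in this way in number and 71.4% in length. The bounds of the stretch were taken from the FLAG lists, not from the H3K4me3 lists.

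When the window was divided into 10 equal segments of 97 kb, numbered from the Pcdha side, FLAG peaks fell in only 4 of them. Segment 10, at the Pcdhg side, held 26, 21 and 25 FLAG peaks in K27M-Tag, compared with 16, 15 and 15 in WT-Tag. They covered 21852, 16800 and 24049 bp against 6125, 10655 and 10139 bp, which was 76.4% to 82.7% of all FLAG length in the window. Segment 3 held 4575, 5193 and 5213 bp against 1125, 2401 and 1953 bp. In both segments every K27M-Tag list held more peaks and covered more than every WT-Tag list. The same was found in number in 33.1%, and in length in 57.1%, of the 15015 autosomal tiles of 97 kb with FLAG peaks. Segment 4 held 1 peak of 271 bp, in K27M-Tag replicate 3. Segment 9 went the other way, with no FLAG peak in K27M-Tag, compared with 2, 3 and 1 peaks in WT-Tag, covering 552, 802 and 337 bp. A separation in that direction was found in 0.753% of the tiles in number and 0.633% in length. These few WT-Tag peaks had summits of 5.11 to 6.47 times background, against medians of 6.15, 5.80 and 6.01 over the whole WT-Tag FLAG lists.

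H3K4me3 was spread over all 10 segments, though segment 1 held at most 1 peak per list. Segment 10 held 37.3% to 45.2% of the H3K4me3 length, with 19856, 16675 and 19307 bp in K27M-Tag, compared with 16435, 17021 and 15385 bp in WT-Tag, and these ranges overlapped. In segment 9 the counts did not vary within a genotype: all 3 K27M-Tag lists held 17 peaks and all 3 WT-Tag lists held 12. K27M-Tag exceeded WT-Tag in peak number without overlap in 9.11% of the 14154 autosomal tiles of 97 kb with H3K4me3 peaks. The length covered there was 9935, 9364 and 8999 bp against 5581, 6379 and 5293 bp, and such a difference in length was found in 46.1% of the tiles. Length also separated without overlap, with K27M-Tag higher, in segments 2, 5, 7 and 8. In segment 7 the lists held 7, 7 and 9 peaks against 3, 4 and 1, and 3202, 2531 and 3253 bp against 839, 1553 and 802 bp. In segment 3, where FLAG differed between the genotypes, H3K4me3 covered 7060, 7169 and 6783 bp against 6074, 7525 and 7133 bp, with overlap.

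**Figure D2:**
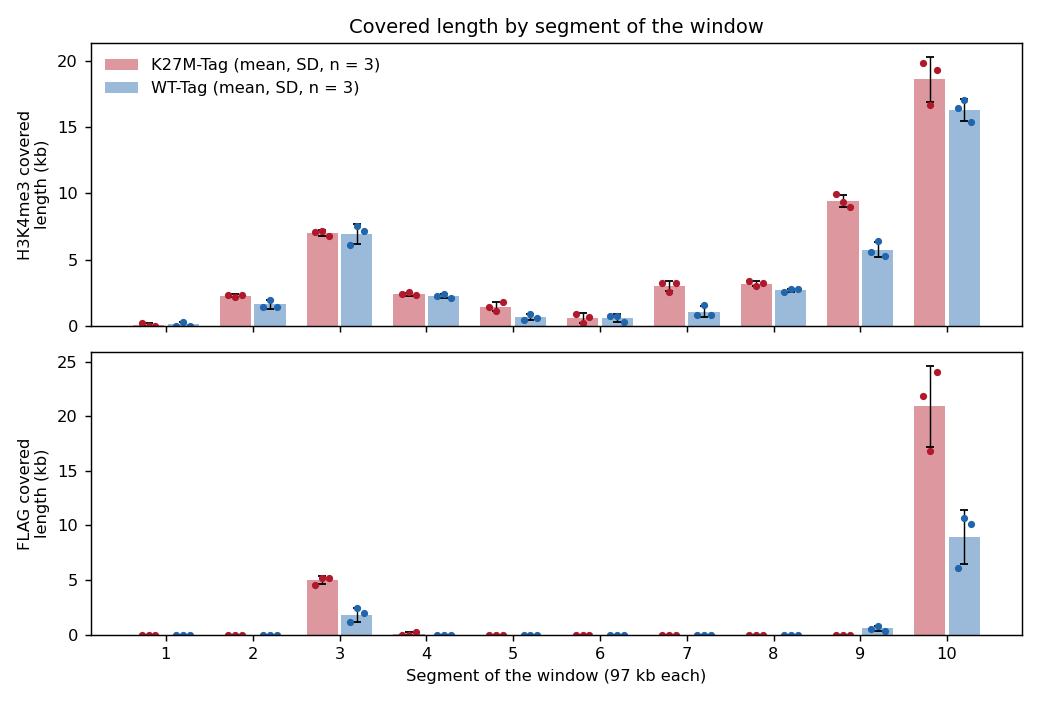
Length covered by H3K4me3 peaks (upper panel) and FLAG peaks (lower panel) in kb for each 97 kb segment of the window, with bars for the mean, error bars for the SD and points for the 3 cultures of a genotype. FLAG length stands almost wholly in segments 3 and 10, with K27M-Tag higher in both, and WT-Tag alone has FLAG in segment 9. H3K4me3 length of K27M-Tag lies above that of WT-Tag in segments 2, 5, 7, 8 and 9.

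Summed over the window, both antibodies were called more often and over a greater length in K27M-Tag. FLAG peaks covered 26427, 21993 and 29533 bp in K27M-Tag, compared with 7802, 13858 and 12429 bp in WT-Tag, with no overlap between the genotypes. The means were 25984 ± 3789 bp and 11363 ± 3166 bp (SD, n = 3), a ratio of 2.287 with an exact permutation p of 0.1. With 3 cultures against 3, 0.1 is the smallest two-sided p this test can give, and adjusted over the 8 window results it was 0.16. The genotypes separated in this way in 83.9% of autosomal tiles, whose median ratio was 3.11 (quartiles 2.28 and 4.44), so the ratio at the protocadherins was close to the lower quartile of tiles. The number of FLAG peaks was 31.7 ± 4.16 against 21.3 ± 1.53 (SD, n = 3), a ratio of 1.48 with an exact permutation p of 0.1, and such a separation in number was found in 62.1% of tiles, with a median ratio of 2.10 and a lower quartile of 1.59. When every list was shortened to the same number of top-scoring peaks, the mean difference in number changed from 10.3 to -1.33 peaks. With 50000 bp taken off each end of the window, the difference in FLAG length was 4529 bp in place of 14621 bp.

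H3K4me3 covered 50609, 44717 and 48623 bp of the window in K27M-Tag, compared with 36321, 41497 and 35719 bp in WT-Tag, again with no overlap. The means were 47983 ± 2998 bp and 37846 ± 3176 bp (SD, n = 3), a ratio of 1.27 with an exact permutation p of 0.1, and 71.4% of tiles separated in the same way. The mean number of peaks was 65.0 ± 6.08 against 52.3 ± 6.43 (SD, n = 3), a ratio of 1.24 with an exact permutation p of 0.1. A separation in number was found in 25.9% of tiles. The median tile ratio was 1.17 for length and 1.15 for number. With lists of equal size the difference in number fell from 12.7 to 2 peaks (exact permutation p of 0.7), and the difference in length was 7070 bp in place of 10137 bp (exact permutation p of 0.1).

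**Figure D3:**
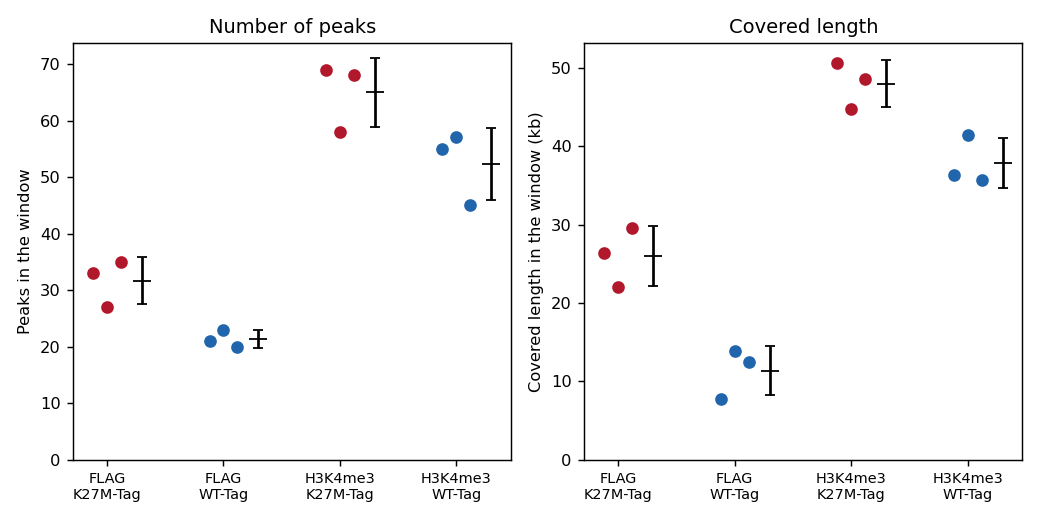
Number of peaks (left) and length covered in kb (right) in the window, with 1 point per culture and the mean with SD beside the 3 points of each group. All 3 K27M-Tag points lie above all 3 WT-Tag points in each of the 4 comparisons.

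The share of a list's covered length that fell in the window compares the clusters with the list as a whole. The FLAG lists of K27M-Tag had 0.0595%, 0.0694% and 0.0592% of their length there, and those of WT-Tag 0.0700%, 0.0711% and 0.0662%. The ranges overlapped, and the exact permutation p was 0.2 (0.267 adjusted over the 8 results). The H3K4me3 lists of K27M-Tag had 0.1130%, 0.1065% and 0.1079%, and those of WT-Tag 0.1007%, 0.1061% and 0.0952%. The genotypes did not overlap, by a narrow margin between K27M-Tag replicate 2 and WT-Tag replicate 2, and the ratio of means was 1.08 (exact permutation p of 0.1, 0.16 adjusted). The greater FLAG length of K27M-Tag in the window was thus not matched by a greater share of the list, while for H3K4me3 the share differed in the same direction as the length. With lists of equal size the differences in share were -0.000674 percentage points for FLAG, in place of -0.00639, and 0.00465 for H3K4me3, in place of 0.00847 (exact permutation p of 0.9 and 0.4).

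FLAG peaks in the window lay on H3K4me3 peaks or close to them. Of the FLAG peaks, 75.8%, 44.4% and 62.9% overlapped an H3K4me3 peak of the same culture in K27M-Tag, compared with 47.6%, 52.2% and 40% in WT-Tag. The means were 61.0% ± 15.7 and 46.6% ± 6.15 (SD, n = 3), the ranges overlapped, and the exact permutation p was 0.3. Within 1000 bp of an H3K4me3 peak lay 32 of 33, 21 of 27 and 33 of 35 FLAG peaks in K27M-Tag and 16 of 21, 17 of 23 and 13 of 20 in WT-Tag. The median distance from a FLAG summit to the nearest H3K4me3 summit was 571, 968 and 568 bp in K27M-Tag, compared with 685, 914 and 1124.5 bp in WT-Tag. The greatest gap from a FLAG peak to the nearest H3K4me3 peak was 1159, 2042 and 1795 bp in K27M-Tag. In WT-Tag it was 9292, 6433 and 7148 bp, so the FLAG peaks more than 2042 bp from the mark were all in WT-Tag lists. The same values over the whole lists are not given here, and the H3K4me3 lists of K27M-Tag were longer. These overlaps and distances are therefore not shown to be particular to the window.

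Seen from the mark, most H3K4me3 peaks of the clusters carried no FLAG peak. The share that did was 26.1%, 15.52% and 26.5% in K27M-Tag, compared with 16.4%, 24.6% and 15.6% in WT-Tag (22.7% ± 6.22 and 18.8% ± 4.98, SD, n = 3, exact permutation p of 0.4). Of the 35 H3K4me3 regions found in all 6 lists, 20 held no FLAG peak in any culture. In 4 of them all 6 cultures had FLAG, in 2 all 3 K27M-Tag cultures and no WT-Tag culture, and in 1 all 3 WT-Tag cultures and no K27M-Tag culture. The remaining 8 were mixed. The same shares over the genome are not given here, so the low share with FLAG is not shown to be particular to the window.

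The 39 merged FLAG regions of the window fell into 9 found in all 6 lists, 6 found in the 3 K27M-Tag lists alone, 1 found in the 3 WT-Tag lists alone and 23 others. Over the genome the shares of these classes were 10.2% for all lists, 9.89% for K27M-Tag alone and 0.585% for WT-Tag alone. Among the 23 others, 17 were called in more K27M-Tag than WT-Tag lists, and 12 regions rested on a single list. For H3K4me3 the 75 regions divided into 35 in all lists (52.9% over the genome), 6 specific to K27M-Tag (4.36%), none specific to WT-Tag (0.26%) and 34 others, of which 24 were in more K27M-Tag lists. The genome shares of regions in more K27M-Tag lists, or in a single list, are not given here, and the K27M-Tag lists were longer. The counts among the others are therefore not shown to be particular to the window. The classes moved with single lists. Without K27M-Tag replicate 2 there were 10 K27M-Tag specific regions for FLAG and 10 for H3K4me3, while 2 WT-Tag specific FLAG regions were found without WT-Tag replicate 3.

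Of the 6 K27M-Tag specific FLAG regions, 3 lay in segment 3 and 3 in segment 10. The highest-scoring was chr18:37331892-37332573, with 682, 572 and 661 bp at score percentiles of 79.2, 74.5 and 63.1 of the K27M-Tag lists. It sat on an H3K4me3 region, chr18:37331743-37332538, that was called in all 6 lists. The mark covered 731, 741 and 740 bp in K27M-Tag, compared with 434, 681 and 620 bp in WT-Tag. These did not overlap, but the region was not called wider (0.38 ± 0.18 on the log2 scale, SE, limma adjusted p of 0.200). H3K4me3 summits there were 11.7, 11.9 and 9.71 times background in K27M-Tag, compared with 11.1, 10.4 and 10.8 in WT-Tag, which overlap. FLAG was therefore called in 1 genotype over a mark called in both. Near 258 kb from the window start, the pair chr18:37307811-37308543 and chr18:37308601-37308991 held 335, 733 and 525 bp and 256, 215 and 334 bp of FLAG in K27M-Tag. The summits of this pair were 4.44 to 6.65 times background. The last 3 were chr18:37963671-37964051, chr18:37966113-37967173 and chr18:37967299-37968047, of which the last 2 lie wholly within the broad H3K4me3 region described next. These last 2 had summits of 4.75 to 6.01 times background. The region chr18:37963671-37964051 was lower, with 3.80, 4.195 and 4.16 times background at score percentiles of 0.827, 4.31 and 9.48. The medians over the whole K27M-Tag FLAG lists were 6.01, 5.99 and 5.83.

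The widest H3K4me3 region of the clusters was chr18:37964979-37970728, in segment 10. It covered 5636, 5701 and 5646 bp in K27M-Tag, compared with 5270, 5594 and 5297 bp in WT-Tag, and its summit was 85.6, 93.0 and 72.5 times background in K27M-Tag against 61.3, 76.6 and 68.5 in WT-Tag. FLAG peaks took up 1525, 725 and 2442 bp inside it in K27M-Tag, but 0, 0 and 213 bp in WT-Tag. The breadth of the mark was greater in K27M-Tag without overlap, by 0.07 ± 0.04 on the log2 scale (SE). Its limma adjusted p was 0.215, so the mark itself was not called wider where these FLAG peaks were found. The nearby region chr18:37972490-37976603 also held more FLAG in K27M-Tag, and there the breadths of the mark overlapped. H3K4me3 covered 3926, 3842 and 3580 bp in K27M-Tag, compared with 3730, 3517 and 3915 bp in WT-Tag (0.02 ± 0.05 on the log2 scale, limma adjusted p of 0.764), while FLAG inside it covered 2639, 2206 and 2682 bp against 216, 535 and 0 bp. The next broad region, chr18:37983193-37985903, held FLAG in every culture, with 2481, 2337 and 2513 bp in K27M-Tag, compared with 924, 2457 and 2198 bp in WT-Tag. Its H3K4me3 summits, 21.6, 21.3 and 20.3 against 19.4, 21.4 and 22.2 times background, overlapped.

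**Figure D4:**
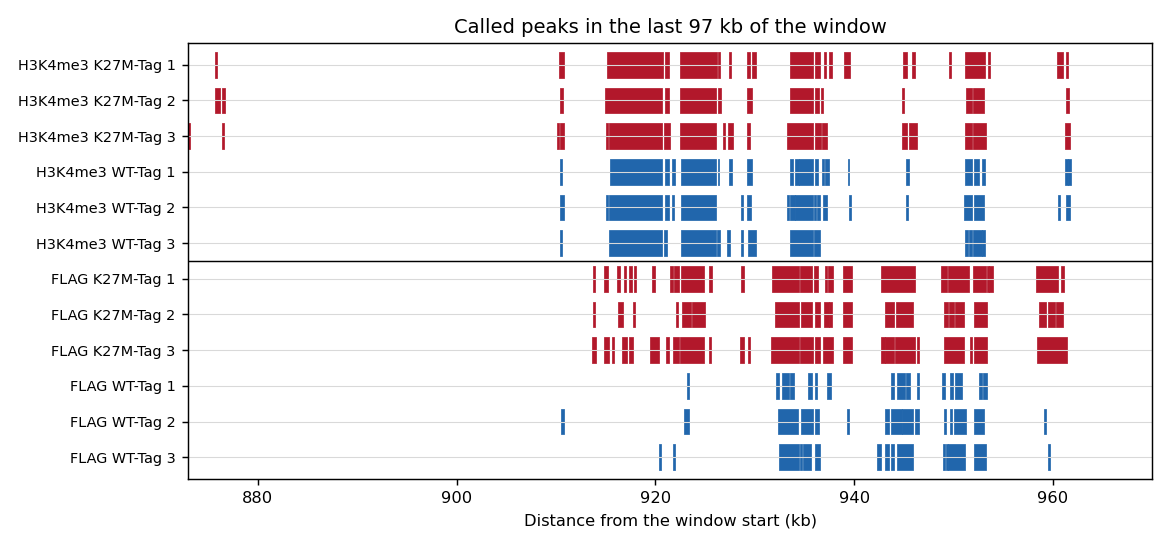
Called peaks in segment 10 of the window, with distance from the window start in kb on the horizontal axis and 1 line per list (red K27M-Tag, blue WT-Tag). Between 914 and 927 kb the broad H3K4me3 blocks appear in all 6 lists, while FLAG there is called mostly in the K27M-Tag lists, and from 931 to 954 kb FLAG appears in both genotypes.

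The 9 FLAG regions called in all 6 lists were compared in breadth, the bp covered by peaks, and in summit height, the read pileup at the highest point divided by background coverage. Both were fitted with limma over all 11980 such regions of the genome. All 9 were wider on average in K27M-Tag, 4 of them without overlap against 58.1% over the genome, and their median log2 difference was 0.60 against 0.81. An adjusted p under 0.05 was reached by 2 of the 9 (43.1% of all regions were called wider in K27M-Tag and 0.618% narrower). In height 6 of 9 did not overlap (42.4%) and 5 were called higher (37.5% higher, 2.03% lower), with a median log2 difference of 0.47 against 0.31. The breadth calls fell to 1 without K27M-Tag replicate 1 and to 0 without K27M-Tag replicate 2 or replicate 3. The height calls fell to 2 without K27M-Tag replicate 1 and to 3 without K27M-Tag replicate 3 or WT-Tag replicate 1, and rose to 6 without K27M-Tag replicate 2.

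Among the 9 regions in all 6 lists, the greatest FLAG change in breadth was at chr18:37337193-37339095 in segment 3. It covered 1453, 1903 and 1568 bp in K27M-Tag, compared with 285, 964 and 587 bp in WT-Tag, without overlap, a log2 difference of 1.58 ± 0.43 (SE) with a limma adjusted p of 0.0170. Its summit was 11.4, 11.99 and 9.71 times background against 6.80, 8.11 and 8.11 (0.52 ± 0.17, limma adjusted p of 0.0130). The breadth call was lost when peaks up to 1000 bp apart were joined (log2 difference 0.46, limma adjusted p of 0.292), and with centring both the breadth call (0.68, limma adjusted p of 0.170) and the height call (0.20, limma adjusted p of 0.376) were lost. Nearly the same bases were marked by H3K4me3 in every list, at chr18:37337151-37338930, with 1382, 1593 and 1619 bp in K27M-Tag, compared with 1517, 1548 and 1330 bp in WT-Tag. The breadth of that mark differed by 0.06 ± 0.09 on the log2 scale, with a limma adjusted p of 0.631. Directly beyond it, chr18:37339173-37340363 held FLAG in all 6 lists and no H3K4me3 peak in any. Its FLAG length was 989, 1191 and 1095 bp against 642, 640 and 900 bp, which did not overlap, but the change of 0.60 ± 0.28 did not pass the threshold (limma adjusted p of 0.107).

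In segment 10 the leading FLAG region was chr18:37981617-37984485, with summits of 13.6, 13.2 and 13.3 times background in K27M-Tag, compared with 8.74, 10.7 and 9.62 in WT-Tag. It was called both higher (0.47 ± 0.16, limma adjusted p of 0.0180) and wider, with 2790, 2394 and 2864 bp against 1252, 2067 and 1986 bp (0.63 ± 0.23, limma adjusted p of 0.0499). The breadth call lay at the threshold: it was lost with the replicate block (limma adjusted p of 0.0775), without the trend (0.0993), with the top 50% of peaks (0.0728) and on leaving out any single culture other than WT-Tag replicate 2. The difference was 0.40 without WT-Tag replicate 1 (limma adjusted p of 0.0546). The highest local background of the caller at any peak of this region was 1.00 times the background coverage in all 3 K27M-Tag lists. In WT-Tag it was 3.09, 1.11 and 1.17 times, and it need not belong to the peak with the tallest summit. The part of this difference in the peak calls was not tested. The neighbouring region chr18:37984561-37985871 reached 12.3, 8.69 and 11.4 against 7.12, 7.82 and 8.11 times background (0.48 ± 0.18, limma adjusted p of 0.0245). Its local background was 1.00 times background coverage in the K27M-Tag lists and 1.43, 1.49 and 1.73 times in the WT-Tag lists. At the third of these neighbours, chr18:37985997-37986602, the summits overlapped, with 6.33, 4.495 and 6.66 against 6.80, 6.37 and 5.71 times background.

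The widest merged FLAG region, chr18:37992656-37996550, was called higher but not wider. Its summits were 10.8, 13.5 and 13.0 times background in K27M-Tag, compared with 6.47, 8.69 and 8.71 in WT-Tag (0.65 ± 0.17, limma adjusted p of 0.00191), and it covered 3481, 2468 and 3537 bp against 1827, 2898 and 2384 bp, which overlap. Little of it carried the mark: H3K4me3 peaks took up 672, 189 and 1183 bp in K27M-Tag, compared with 318, 222 and 0 bp in WT-Tag. The greatest change in height was at chr18:38001959-38003535, with 13.3, 11.1 and 10.8 against 6.15, 6.66 and 7.51 times background (0.79 ± 0.18, limma adjusted p of 0.000278). The local background was at background coverage in all 6 lists there. Here H3K4me3 moved too, since the overlapping region chr18:38001088-38003236 reached 15.9, 17.3 and 17.4 times background in K27M-Tag, compared with 10.4, 12.4 and 9.88 in WT-Tag (0.64 ± 0.22, limma adjusted p of 0.0416). At the far end chr18:38008304-38011411 held 2479, 2080 and 2983 bp of FLAG in K27M-Tag but 0, 227 and 209 bp in WT-Tag, and as it was missing from 1 list it was not in the fit.

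At some FLAG regions of the clusters the genotypes overlapped or WT-Tag was higher. At chr18:37301811-37302544, the first FLAG region from the Pcdha side, the summits were 5.70, 6.59 and 5.27 times background in K27M-Tag, compared with 5.50, 6.37 and 5.71 in WT-Tag, a log2 difference of -0.01 ± 0.17 (limma adjusted p of 0.982). This region flanked one of the tallest H3K4me3 regions of the window, chr18:37302669-37305200, without touching it in any list. Only K27M-Tag replicate 1 had a FLAG peak inside that H3K4me3 region, of 524 bp. The single region specific to WT-Tag was chr18:37911378-37911763 in segment 9, with 176, 221 and 337 bp and summits of 5.83, 5.51 and 5.11 times background. It lay on an H3K4me3 region that was called in all 6 lists.

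Over the genome the FLAG summits of K27M-Tag were higher by a median of 0.31 and the FLAG regions wider by 0.81 on the log2 scale, and H3K4me3 summits were higher by 0.33 and regions wider by 0.14. Subtracting from each list the median of its own log2 values took off somewhat more than those shifts, since the median difference was then -0.10 for FLAG breadth and -0.07 for H3K4me3 height, and -0.01 for FLAG height. On that scale fewer window regions were called. For FLAG height, chr18:38001959-38003535 was still called higher (0.47 ± 0.16, limma adjusted p of 0.0267), and chr18:37985997-37986602 was called lower (-0.45 ± 0.17, limma adjusted p of 0.0489). For FLAG breadth only chr18:37992656-37996550 was called, and as narrower (-0.48 ± 0.15, limma adjusted p of 0.0447), against the median of -0.10. The region chr18:37985997-37986602 is named here after its values were seen.

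**Figure D5:**
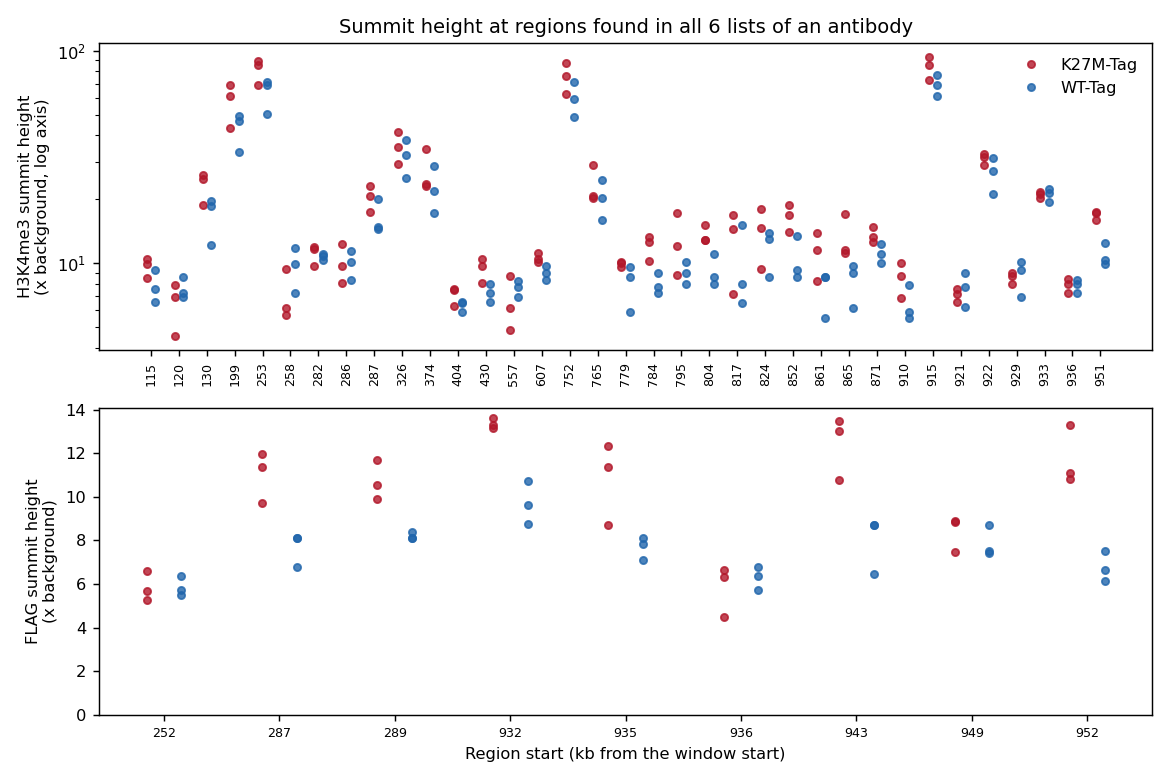
Summit height in multiples of background coverage for the regions found in all 6 lists, ordered by start in kb from the window start, for H3K4me3 (upper panel, log axis) and FLAG (lower panel), with 1 point per culture. FLAG summits of K27M-Tag lie above all WT-Tag summits at 6 of 9 regions, and H3K4me3 summits do so at 9 of 35.

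Among the 35 H3K4me3 regions in all 6 lists, 13 were wider in K27M-Tag without overlap (37.9% over 22592 regions of the genome) and 9 were higher (33.2%). Called differences were few: 2 regions were wider (7.56% of all regions) and 3 higher (10.5%), and none was narrower or lower (0.549% and 0.465%). An unadjusted limma p under 0.05 was reached by 10 regions in breadth and 10 in height, in either direction. The same share over the genome is not given here, so these 2 counts are not shown to be particular to the window. The median log2 difference in breadth was 0.22 in the window and 0.14 over the genome, and in height 0.28 and 0.33. The breadth calls fell to 0 without any one of the 3 K27M-Tag cultures and to 1 without WT-Tag replicate 3, and rose to 5 without WT-Tag replicate 2. The height calls fell to 0 without K27M-Tag replicate 1, K27M-Tag replicate 2 or WT-Tag replicate 3, and rose to 7 without WT-Tag replicate 2.

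Of these called H3K4me3 differences, all but one lay in segment 9, among a run of mostly small regions that begins with the tall region chr18:37802269-37804652. From 37802269 to 37922175 the 21 merged H3K4me3 regions were spaced by a median of 5350.5 bp from one to the next, with quartiles of 4894 and 5970 bp and extremes of 471 and 12854 bp. In segment 9, which is described because most calls lay there, 10 regions were in all 6 lists. All 10 had a wider and higher mean in K27M-Tag, a share not given here over the genome. Without overlap were 6 in breadth (37.9% over the genome) and 6 in height (33.2%). The median log2 difference in height of the 10 was 0.50, against 0.33 over the genome and 0.12 for the 8 such regions of segment 10. It was 0.18 to 0.31 in segments 2 to 5, 7 and 8, and -0.26 at the 1 such region of segment 6. Both called breadth changes belonged to this run. At chr18:37915307-37916322 the mark covered 965, 954 and 721 bp in K27M-Tag, compared with 354, 400 and 190 bp in WT-Tag (1.54 ± 0.30, limma adjusted p of 0.0313), and its summit was 17.1, 11.5 and 11.1 times background against 9.01, 9.67 and 6.17 (0.68 ± 0.22, limma adjusted p of 0.0271). At chr18:37853905-37854648 it covered 720, 634 and 630 bp against 275, 383 and 354 bp (0.98 ± 0.18, limma adjusted p of 0.0262), a call kept with centring (0.84 ± 0.16, limma adjusted p of 0.0416) and lost with the replicate block (limma adjusted p of 0.0716). Another region of the run, chr18:37901610-37902325, was called higher, with 16.8, 18.7 and 14.0 against 8.66, 13.5 and 9.26 times background (0.68 ± 0.22, limma adjusted p of 0.0290). With centring the breadth call at 37915307 (1.40, limma adjusted p of 0.0546) and all 3 height calls of the window (0.24 to 0.28, limma adjusted p of 0.416 to 0.490) were lost. The local background at 37853905 was 1.06, 1.00 and 1.00 times background coverage in K27M-Tag against 1.21, 1.13 and 1.13 in WT-Tag, at 37901610 it was 1.00 in each K27M-Tag list against 1.54, 1.13 and 1.14, and at 37915307 it was 1.00 in each K27M-Tag list against 1.00, 1.05 and 1.76. The part of local background in these calls was not tested. None of these 3 regions overlapped a FLAG peak in any culture.

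The 6 H3K4me3 regions specific to K27M-Tag were low peaks in the same middle and late parts of the window, and none held FLAG. They were chr18:37467078-37467658 in segment 5, chr18:37644626-37645030 and chr18:37649129-37649512 in segment 7, and chr18:37849417-37849790, chr18:37880090-37880427 and chr18:37896603-37896986 in segment 9. The first covered 382, 421 and 393 bp in the K27M-Tag lists, and the others covered between 209 and 384 bp.

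The tallest H3K4me3 regions lay in segments 3, 8 and 10, and their heights did not pass the test. At chr18:37302669-37305200 the summits were 85.3, 89.8 and 69.1 times background in K27M-Tag, compared with 50.2, 71.1 and 68.5 in WT-Tag (0.37 ± 0.21, limma adjusted p of 0.188), and the breadth differed by -0.02 ± 0.05 on the log2 scale (limma adjusted p of 0.791). The local background of the caller was 1.00 times background coverage in the K27M-Tag lists but 2.201, 1.53 and 2.201 times in the WT-Tag lists, and its part in the calls was not tested. A similar arrangement held at chr18:37248967-37250543, where summits were 61.0, 68.9 and 43.1 against 33.3, 46.6 and 49.1 times background and the local background was 1.01 against 1.71, 1.76 and 1.67 times. At chr18:37802269-37804652, a tall region with no FLAG peak nearby, the local background did not differ, and the summits were 76.0, 87.2 and 62.5 against 48.8, 71.5 and 59.0 times background (0.34 ± 0.21, limma adjusted p of 0.215). Local background above 1.5 times background coverage was found at 2, 4 and 3 H3K4me3 peaks of the window in K27M-Tag and at 6, 9 and 8 in WT-Tag. Over the whole lists it was found at 8.68% to 10.8% of H3K4me3 peaks in K27M-Tag and 32.9% to 33.4% in WT-Tag. The region chr18:37376493-37378046 was nearly the same in both genotypes, covering 1482, 1482 and 1381 bp in K27M-Tag, compared with 1483, 1526 and 1342 bp in WT-Tag.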

How the data were processed

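Peak lists of 12 ChIP-seq libraries were used, 1 FLAG and 1 H3K4me3 list for each of 3 K27M-Tag and 3 WT-Tag cultures. Genotype, antibody and replicate number (the experiment number) come from the labels. The submitters' processing notes name BWA 0.7.17-r1188, MACS2 2.2.7.1 and bedtools 2.29.2, with builds mm9 and dm6. Their settings and the control used are not given in the sources used here. Whether each genotype was called against its own composite input is therefore not known. Peaks were called per library, as each list is the authors' own deposited narrowPeak file. The authors' deposited score is 10 times the −log10 q within 1 unit, 2 further deposited columns give −log10 p and −log10 q from the caller (lowest −log10 q 2.00 to 2.05), and the deposited fold is a ratio of summit pileup to local background. Per the labels' protocols, Drosophila chromatin was added to the H3K4me3 samples, but the lists carry no factor from it. No value is scaled by it.

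Peaks were the unit of the window. Regions were merged over the 6 lists of an antibody (at least 1 bp shared). Summit pileup and local background were recovered as the values that give both the deposited fold and the deposited p (Poisson tail), within a relative error of 0.0001, for 100% of peaks. Background coverage is the most common local background of a list. The height and the local background of a region are each the highest value among its peaks in a list, taken separately. Breadth and height were fitted on log2 values, without pseudocount, in limma 3.58.1 (R 4.3.3, trend, Benjamini-Hochberg over all regions, threshold 0.05). Two-sided exact permutation tests over all splits of the cultures (numpy 2.4.6) were used for window totals, adjusted over 8 results. The window's regions named are those called in breadth, up to 5 specific to a genotype, the 5 with the highest mean score percentile and the 3 widest per antibody. Further regions, among them those called in height, were named after their values were seen. Members and lists were chosen with earlier results of these data known, and the height measure was added after the lists were seen. The code was tested on simulated lists. The gene table is of another build, so no mm9 gene positions or sequences were used here.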

Additional observations from a re-analysis of the deposited data

How the results depend on the processing

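Each value was recomputed with the top 50% of peaks by score, with equal list sizes (32763 FLAG or 31932 H3K4me3 peaks), with peaks merged where at most 1000 bp apart (joined peaks), with 50000 bp taken off each window edge, with a 50% overlap, with centring, without the trend, with the replicate number as a block and without each culture in turn. Of the recomputed window totals and counts, 150 kept their direction (and, for counts, stayed within 1.5 times), 37 counts moved further and 3 totals reversed. The K27M-Tag minus WT-Tag difference reversed for the number of FLAG peaks with equal list sizes (-1.33, from 10.3), for the FLAG share of the list with trimmed edges (0.00192 percentage points, from -0.00639) and for the share of H3K4me3 peaks with FLAG at equal list sizes (-0.181 percentage points, from 3.86). Differences that kept their direction moved by over 1.5 times as follows. The top 50% of peaks gave 4.33 FLAG and 6 H3K4me3 peaks, a FLAG share difference of -0.0166 and 13.1 percentage points more H3K4me3 peaks with FLAG. Equal list sizes gave 2 H3K4me3 peaks and share differences of -0.000674 (FLAG) and 0.00465 (H3K4me3). Joined peaks gave 2 FLAG peaks, share differences of -0.00976 and 0.00513, and 2.53 percentage points more H3K4me3 peaks with FLAG. Trimmed edges gave 6.67 FLAG peaks, 4529 bp of FLAG and 21.7 percentage points more FLAG peaks with H3K4me3. The cause was not tested.

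FLAG regions in all lists fell from 9 to 3 with trimmed edges. FLAG regions specific to K27M-Tag changed from 6 to 2 with equal list sizes and 3 with joined peaks, and those specific to WT-Tag from 1 to 0 with the top 50% of peaks and 0 with equal sizes. H3K4me3 regions in all lists fell from 35 to 7 with the top 50% of peaks, and those specific to K27M-Tag from 6 to 2 both there and with equal list sizes. Called FLAG breadth changes went from 2 to 1 with centring (narrower), 1 with the replicate block, 1 without the trend and 1 with the top 50% of peaks. FLAG height calls went from 5 to 2 with centring, 1 of them lower. H3K4me3 breadth calls went from 2 to 1 with centring, 1 with the replicate block and 0 with the top 50% of peaks. H3K4me3 height calls went from 3 to 1 with centring, which was the region chr18:37308198-37309512, called lower (-0.85 ± 0.24, limma adjusted p of 0.0224).

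Without each culture in turn, the difference ranged from 8.67 to 12.7 FLAG peaks, from 9 to 16.2 H3K4me3 peaks, from 12841 to 16617 bp for FLAG, from 8824 to 11963 bp for H3K4me3, from -0.00973 to -0.00463 percentage points for the FLAG share, from 0.00572 to 0.0112 for the H3K4me3 share, from 7.05 to 22.7 for FLAG peaks with H3K4me3 and from 1.98 to 7.45 for H3K4me3 peaks with FLAG. Counts ranged from 9 to 10 FLAG and 35 to 40 H3K4me3 regions in all lists, from 6 to 10 specific to K27M-Tag for each antibody, and from 1 to 2 FLAG and 0 to 1 H3K4me3 regions specific to WT-Tag. Calls ranged from 0 to 2 for FLAG breadth, 2 to 6 for FLAG height, 0 to 5 for H3K4me3 breadth and 0 to 7 for H3K4me3 height. With the replicate block the smallest paired exact permutation p is 0.25. The block left 5 FLAG and 2 H3K4me3 height calls.

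For single regions named in the text, 49 results were weaker and 165 unchanged in call. With centring, FLAG breadth reversed at the regions starting at 37339173 (-0.30), 37981617 (-0.27), 37992656 (-0.48) and 38001959 (-0.31), and H3K4me3 breadth at those starting at 37802269 (-0.0091), 37964979 (-0.067), 37972490 (-0.12) and 37983193 (-0.073). With joined peaks the 37964979 and 37972490 regions became 1 region and gave -0.014. Without 1 culture, the sign turned where values were near 0: they ranged from -0.047 to 0.0054 at 37302669, from -0.056 to 0.037 at 37376493 and from -0.016 to 0.063 at 37972490. Deviations of same-numbered cultures correlated by 0.0052, 0.0080 and 0.013 for FLAG breadth and 0.095, 0.18 and -0.038 for H3K4me3 height. With 3 pairs, these cannot show whether a number marks a batch. With only called peaks deposited, an uncalled stretch is not shown to lack signal, and the depth is known only as background coverage.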
